A study of Mus musculus with 12 samples.

Results

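Complement is a cascade of blood and tissue proteins that tags cells and debris for removal. Its classical pathway starts with C1q, a hexamer built from the A, B and C chains that C1qa, C1qb and C1qc encode. It runs through C4 (C4b in the mouse) to C3, whose fragments are bound by receptors on phagocytes. In dorsal root ganglia (DRG), which hold the cell bodies of sensory neurons, C1q is made mainly by macrophages that live between the neurons and along the vessels, whereas C3 and C4b are made by fibroblasts and glia as well. These macrophages are known to take part in the response of the ganglion to nerve injury.

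A set of 10 such genes, of the 44345 gene names in the read count table, were taken by name and followed over 12 samples. C1qa, C1qb, C1qc, C3 and C4b are complement genes. Cd68 encodes a lysosomal membrane protein of phagocytes, Aif1 the calcium-binding protein IBA1, Mrc1 the mannose receptor CD206, Cd163 the receptor for haemoglobin bound to haptoglobin, and Trem2 a lipid-binding receptor of macrophages and microglia. RNA was sequenced from sciatic DRG of C57BL/6 mice aged 5 to 8 weeks, kept for 10 days in standard housing (SH) or environmental enrichment (EE), which had larger cages, more mice per cage, a running wheel and changing objects. The mice then had a sham exposure of the sciatic nerve or a complete sciatic nerve axotomy (SNA), and ganglia were taken 24 h later. The 4 groups, called SH Sham and SH SNA in standard housing and EE Sham and EE + SNA in enrichment, had 3 samples each, and every sample was a pool of the ganglia of 2 mice from both sides. The study describes the EE Sham data as published before, which the labels do not say, so that in each comparison with EE Sham a difference between datasets and the effect of housing or injury cannot be told apart. The study asked whether enrichment before axotomy changes the response of the ganglion. All values below are from whole ganglia, in which more macrophages and more RNA per macrophage cannot be told apart.

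The libraries held 11343579 to 22871460 reads on genes. The levels given are CPM, counts corrected for library size with edgeR's TMM factors of 0.978 to 1.02. All 10 genes passed the filter on low counts, with at least 8 counts in every sample, and Trem2 (8 to 28 counts) and Aif1 (10 to 49 counts) were the lowest. Atf3, a transcription factor induced in axotomized sensory neurons, checks the injury labels. It lay at 109.9 to 168 CPM in the 6 sham samples and at 454 to 549 CPM in the 6 SNA samples. Of 14 genes listed for macrophages in general, all 14 had reads in every sample, and Csf1r, the receptor for macrophage colony-stimulating factor, lay at 16.0 to 24.0 CPM. Of the markers of resident macrophages, Lyve1 and Cbr2 were present in every sample, Folr2 did not exceed 11 counts, and Timd4 did not exceed 4 counts and was at 0 in 4 samples. Neutrophil genes, summed over their list of 12, lay at 82.6 to 253 CPM in the sham samples and at 135 to 818 CPM in the SNA samples, with the highest sum in EE + SNA replicate 3 and the next in SH SNA replicate 3 (352 CPM). These libraries also held the most red blood cell transcripts, at 1371 and 1222 CPM against 232 to 714 CPM in the sham samples. Of 11 neutrophil genes tested over both housings 1 was called higher after adjustment and 8 at the unadjusted P-value, and of 7 red blood cell genes 2 and 6. Of all genes tested, 11.4% and 18.1% were called higher. The part of neutrophils and red blood cells in the results below was not tested. Fits with the neutrophil sum as a covariate are given below. Its mean was 141 and 188 CPM in the sham groups and 238 and 395 CPM in the SNA groups. Such a fit thus cannot tell neutrophils and injury apart.

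The C1q genes lie side by side on chromosome 4 of GRCm38 (mm10), all on the minus strand. C1qb is at chr4:136880129-136886187, C1qc at chr4:136889804-136893065 and C1qa at chr4:136895917-136898803. Mrc1 is at chr2:14229392-14332057 and Cd163 at chr6:124304656-124330527, both on the plus strand. C3 (chr17:57203970-57228136), C4b (chr17:34728380-34743882), Aif1 (chr17:35170991-35176068) and Trem2 (chr17:48346401-48354147) lie on chromosome 17, Trem2 on the plus strand and the others on the minus strand, and Cd68 lies at chr11:69664213-69666153 on the minus strand. None of the 10 genes shares exonic bases with another gene in the GENCODE annotation. Promoters of 8 of the 10 genes were found in a RefSeq table for GRCm38.p6, which holds 250 bases before and 50 bases after each gene's start; C1qa and C4b had no entry. The promoters of C1qb and C1qc are shown because their levels moved together after injury, and those of Mrc1 and Cd163 because these receptors also rose and differ in the motif that was searched. Capitals mark GAGGAA, the core of the site of PU.1, the transcription factor of macrophages encoded by Spi1, or its reverse complement.
C1qb chr4:136886151-136886450, minus strand: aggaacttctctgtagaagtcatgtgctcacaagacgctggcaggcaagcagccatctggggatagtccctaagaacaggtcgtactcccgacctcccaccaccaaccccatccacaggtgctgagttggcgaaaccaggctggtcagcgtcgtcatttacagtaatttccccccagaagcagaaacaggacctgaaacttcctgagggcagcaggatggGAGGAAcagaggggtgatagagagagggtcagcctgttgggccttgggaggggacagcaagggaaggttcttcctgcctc
C1qc chr4:136892865-136893164, minus strand: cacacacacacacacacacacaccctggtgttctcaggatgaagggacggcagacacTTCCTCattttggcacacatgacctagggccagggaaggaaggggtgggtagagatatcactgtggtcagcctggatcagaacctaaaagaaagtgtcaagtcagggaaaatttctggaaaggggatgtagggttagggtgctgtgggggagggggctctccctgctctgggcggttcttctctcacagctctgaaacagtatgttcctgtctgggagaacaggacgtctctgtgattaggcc
Mrc1 chr2:14229164-14229463, plus strand: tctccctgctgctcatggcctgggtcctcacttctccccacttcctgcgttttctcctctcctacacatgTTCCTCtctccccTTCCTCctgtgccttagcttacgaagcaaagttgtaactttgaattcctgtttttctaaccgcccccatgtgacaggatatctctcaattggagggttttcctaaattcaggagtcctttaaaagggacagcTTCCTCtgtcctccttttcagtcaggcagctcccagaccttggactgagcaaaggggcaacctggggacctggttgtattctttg
Cd163 chr6:124304401-124304700, plus strand: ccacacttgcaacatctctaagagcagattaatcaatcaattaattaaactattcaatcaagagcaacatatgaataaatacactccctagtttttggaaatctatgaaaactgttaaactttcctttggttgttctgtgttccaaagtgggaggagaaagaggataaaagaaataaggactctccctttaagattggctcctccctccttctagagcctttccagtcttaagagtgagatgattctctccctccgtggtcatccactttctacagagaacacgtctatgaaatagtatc

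The first base of the match lies at −30 from the RefSeq start in C1qb and at −193 in C1qc, and the 3 matches in Mrc1 lie at −180, −167 and −35. Cd68 holds 2 matches, Aif1 and Trem2 hold 1 each, and C3 and Cd163 hold none. GAGGAA on either strand is thus in 6 of the 8 promoters, against 28.3% of all 32851 promoters of this length. The STAT site TTCNNNGAA was in none of the 8 and in 8.30% of all promoters. A match of letters is a description of the window and says nothing of binding.

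Per gene length, C1qb was the most abundant of the 10 genes and Trem2 the least. Median levels over the 12 samples were 15.6 FPKM (fragments scaled to gene length and library size) for C1qb, 12.7 for C1qa, 10.8 for C4b, 6.04 for C1qc, 3.01 for C3, 2.51 for Mrc1, 2.31 for Cd68, 1.69 for Cd163, 1.29 for Aif1 and 0.183 FPKM for Trem2. C1qb exceeded C1qa, C4b exceeded C1qc, C1qc exceeded C3, and Aif1 exceeded Trem2 in 12 of 12 samples. The neighbours C1qa and C4b kept this order in 9 of 12 samples, C3 and Mrc1 in 8, Mrc1 and Cd68 in 7, and Cd68 and Cd163 as well as Cd163 and Aif1 in 9, so that these neighbours did not differ beyond their spread. The chains of C1q, which are joined in equal numbers in the protein, stood in unequal but narrow FPKM ratios. C1qb was 2.202 to 2.997 times as high as C1qc, and C1qa 1.51 to 2.34 times as high as C1qc. These ratios depend on the length used. The annotated exons of C1qc hold 1931 bases, against 1040 for C1qa and 1088 for C1qb. In CPM, which is not divided by length, the means over the 12 samples were 12.05 for C1qc, 13.2 for C1qa and 17.7 for C1qb. The highest FPKM of a gene was 1.62 times its lowest for C1qc, the smallest range of the 10, and 4.49 times for Cd68, the widest.

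**Figure D1:**
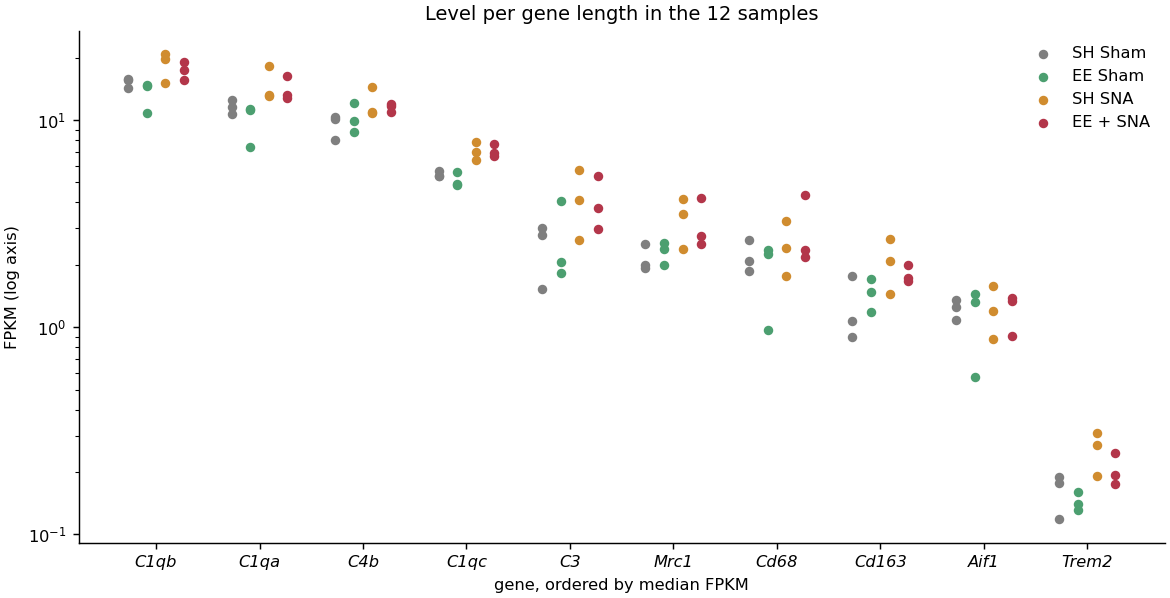
Levels of the 10 genes per gene length in the 12 samples, in FPKM on a log axis, ordered by their median. Each point is 1 sample and the colours are the 4 groups. The C1q chains and C4b lie at medians of 6.04 to 15.6 FPKM, and Trem2 lies apart from the others at 0.118 to 0.308 FPKM.

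SNA was followed by higher complement and macrophage transcripts 24 h later, by 1.21-fold to 1.62-fold in the genes called. Over both housings, with 6 SNA against 6 sham samples and housing as a term, 8 of the 10 genes rose and none fell, where 11.4% of the 16238 genes tested were called higher. All C1q chains, C3, C4b, Mrc1, Cd163 and Trem2 rose. Cd68 and Aif1 did not pass the test. The median of the 10 log2 fold changes was 0.43, and that of all genes tested 0.0071. A gene was called at a Benjamini-Hochberg adjusted P-value of 0.05 by edgeR's quasi-likelihood test over all 16238 genes. At the unadjusted P-value of 0.05 that the study used, 8 of the 10 were again called higher, against 18.1% of all genes. The 10 genes and the lists below were chosen with earlier results of these data known. Their shares therefore describe the chosen genes and are not a test of them as a set.

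C1qc had the smallest adjusted P-value of the 10 genes. Its level was 10.97, 10.3 and 10.3 CPM in SH Sham, 9.75, 9.26 and 10.8 CPM in EE Sham, 15.2, 12.6 and 13.6 CPM in SH SNA, and 13.7, 12.9 and 15.2 CPM in EE + SNA. Every SNA sample lay above every sham sample. The log2 fold change over both housings was 0.43 (standard error 0.074, adjusted P = 0.000339), a 1.35-fold higher level.

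C1qa showed the same separation. Its level was 13.1, 11.98 and 11.1 CPM in SH Sham, 7.94, 11.7 and 11.6 CPM in EE Sham, 19.0, 13.9 and 13.6 CPM in SH SNA, and 13.6, 13.7 and 17.2 CPM in EE + SNA. The lowest value of all was that of EE Sham replicate 1, and the log2 fold change was 0.43 (standard error 0.11, adjusted P = 0.00821). C1qa and C1qc were the 2 of the 10 genes in which all SNA samples exceeded all sham samples, where 5.47% of all genes did so.

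C1qb lay at 15.7, 17.1 and 17.0 CPM in SH Sham, 12.1, 15.6 and 16.2 CPM in EE Sham, 22.6, 16.7 and 21.6 CPM in SH SNA, and 17.4, 19.1 and 21.2 CPM in EE + SNA. In 5 of 6 SNA samples it was above every sham sample, and SH SNA replicate 2 was not. Its log2 fold change was 0.34 (standard error 0.087, adjusted P = 0.00866).

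C3, the component on which the pathways of complement meet, varied most between samples of a group among the complement genes. It lay at 7.86, 15.4 and 14.3 CPM in SH Sham, 9.66, 20.6 and 10.6 CPM in EE Sham, 21.2, 13.7 and 29.5 CPM in SH SNA, and 19.7, 15.4 and 28.05 CPM in EE + SNA. The groups overlapped, with EE Sham replicate 2 above 3 of the SNA samples. The log2 fold change was 0.69 (standard error 0.22, adjusted P = 0.0285). C3 had the highest r of the 10 genes, across the 12 samples on a log2 scale, to the sums of 5 lists. These were red blood cells (0.88), monocytes (0.87), myelinating Schwann cells (0.87), macrophages in general (0.86) and neutrophils (0.73, with Mrc1 at 0.71). To the fibroblast sum C3 had 0.77, below C1qb at 0.79. These sums come from the same libraries, and their part in the C3 difference was not tested.

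C4b had the highest counts of the 10 genes and a small difference. It lay at 46.1, 57.3 and 58.8 CPM in SH Sham, 51.2, 67.9 and 56.3 CPM in EE Sham, 62.2, 62.4 and 82.2 CPM in SH SNA, and 68.1, 68.3 and 63.7 CPM in EE + SNA. In 3 of 6 SNA samples it exceeded every sham sample, and the log2 fold change was 0.27 (standard error 0.083, adjusted P = 0.0257). C4a, a nearly identical neighbour, had at most 9 counts in a sample, and reads that fit both genes may be missing from the counts of C4b.

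Mrc1 and Cd163, receptors of macrophages beside vessels, had larger fold changes than the C1q chains over both housings and in SH, and the difference was not tested. In EE Mrc1 (0.45) lay among the C1q chains (0.38 to 0.49) and Cd163 (0.29) below them. Mrc1 lay at 11.6, 14.8 and 11.9 CPM in SH Sham, 14.6, 11.8 and 15.2 CPM in EE Sham, 24.8, 14.4 and 21.1 CPM in SH SNA, and 15.2, 16.5 and 25.4 CPM in EE + SNA. Cd163 lay at 4.05, 4.81 and 7.96 CPM in SH Sham, 5.50, 6.60 and 7.72 CPM in EE Sham, 12.004, 6.59 and 9.47 CPM in SH SNA, and 7.65, 7.75 and 9.19 CPM in EE + SNA. Mrc1 exceeded every sham sample in 5 of 6 SNA samples, and Cd163 in 3 of 6. SH SNA replicate 2 was the lowest SNA sample for both genes and lay within the sham range. The log2 fold changes were 0.56 for Mrc1 (standard error 0.14, adjusted P = 0.00741) and 0.53 for Cd163 (standard error 0.17, adjusted P = 0.0317).

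Trem2 was near the lower limit of what was tested. Its counts were 10, 13 and 13 in SH Sham, 9, 9 and 8 in EE Sham, 20, 16 and 12 in SH SNA, and 11, 28 and 11 in EE + SNA, from libraries of unequal depth. In CPM, 5 of 6 SNA samples exceeded every sham sample, with 0.587 to 0.933 CPM in the sham samples and 0.886 to 1.53 CPM in the SNA samples. The log2 fold change was 0.63 (standard error 0.21, adjusted P = 0.0416).

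The general phagocyte genes Cd68 and Aif1 were the genes not called. Cd68 lay at 1.22 to 3.30 CPM in the sham samples and 2.23 to 5.56 CPM in the SNA samples, and its highest value was that of EE + SNA replicate 3, the library with the most neutrophil transcripts. Its log2 fold change was 0.41 with a 95% interval of −0.072 to 0.90 (adjusted P = 0.217). Aif1 lay at 0.902 to 2.201 CPM in the sham samples and 1.35 to 2.45 CPM in the SNA samples, with a log2 fold change of 0.064 and a 95% interval of −0.37 to 0.50 (adjusted P = 0.863). At 10 to 69 counts per sample, the intervals of these 2 genes include both 0 and the fold changes of the C1q chains.

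**Figure D2:**
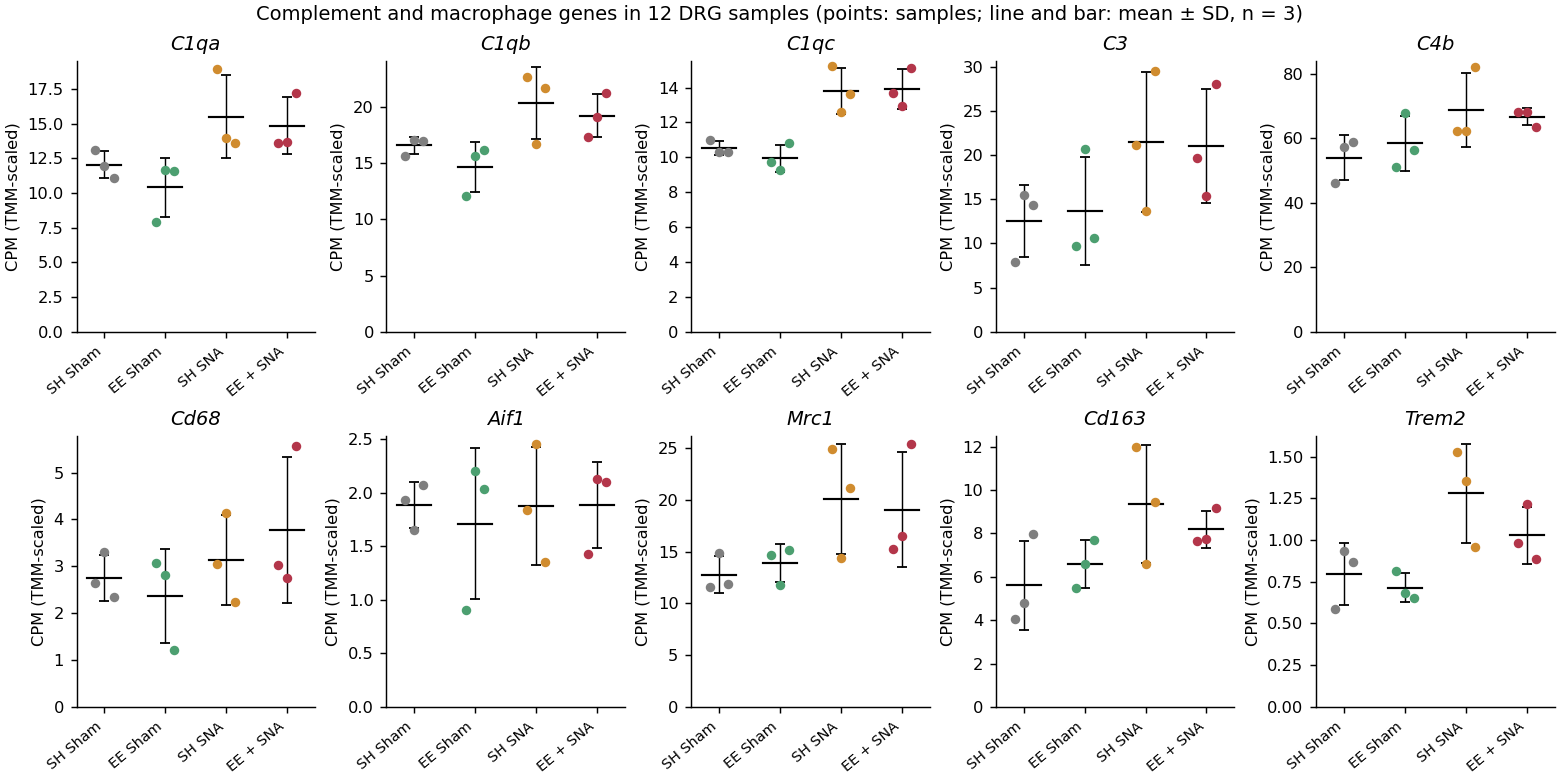
Levels of the 10 genes in CPM, 1 panel per gene, for both sham groups and both SNA groups. Points are samples, the line is the mean and the bar the SD (n = 3). C1qa and C1qc are the panels in which all SNA points lie above all sham points, and the Aif1 groups overlap throughout.

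The count of called genes changed when single libraries were left out. It was 4 without SH Sham replicate 1 or without EE Sham replicate 1, and 5 without SH SNA replicate 1 or SH SNA replicate 3. Calls over all genes, in either direction, were 3046, 3110, 2962 and 3195 in these fits, in this order, against 3638 with all samples. With the summed neutrophil CPM as a covariate, an alternative chosen after seeing the data, 2 genes were called (C1qa and C1qc), and 4 were called without both libraries of the highest neutrophil sums (C1qa, C1qc, Mrc1 and Trem2). In both of these alternatives all 10 log2 fold changes stayed above 0 and 7 of the 10 genes passed at the unadjusted P-value. Of all 16238 genes tested, 4489 passed it with the covariate and 4867 without both libraries, in either direction. With the covariate the log2 fold change of C1qc was 0.40, that of Mrc1 0.36 and that of C3 0.35. The calls over all genes numbered 2473 with the covariate and 2740 without both libraries, in place of 3638. C1qa and C1qc stayed called in all 22 alternatives run for this comparison, C1qb in 20 and Mrc1 in 21. C3 was called in 11, C4b in 15, Cd163 in 12 and Trem2 in 7 of 21.

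In SH alone, SH SNA against SH Sham, which does not involve EE Sham, 2 of the 10 genes rose, where 6.06% of all genes were called higher. These were C1qc, with a log2 fold change of 0.39 (standard error 0.11, adjusted P = 0.0333), and Mrc1, with 0.66 (standard error 0.17, adjusted P = 0.0269). At the unadjusted threshold 7 of the 10 were higher, against 13.4% of all genes, the other 5 being C1qa (0.37), C1qb (0.30), C3 (0.79), C4b (0.35) and Cd163 (0.75). Samples of SNA lay above all of sham for C1qa, C1qc, C4b and Trem2, 4 of 10 genes, and for 14.3% of all genes. None of the 10 genes was called without SH Sham replicate 1, SH SNA replicate 1 or SH SNA replicate 3, 1 without SH Sham replicate 2 or 3, and 6 without SH SNA replicate 2, the library that lay lowest of SH SNA for C1qb, C1qc, C3, Mrc1 and Cd163. Over all genes these fits called 1207 to 1683 in either direction, the most without SH SNA replicate 2, against 1823 with all samples.

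In EE, EE + SNA against EE Sham, 1 of the 10 genes rose, C1qc, with a log2 fold change of 0.47 (standard error 0.11, adjusted P = 0.0365), where 2.51% of all genes were called higher. At the unadjusted threshold C1qa (0.49), C1qb (0.38) and Mrc1 (0.45) were higher too, which makes 4 of 10 against 10.3% of all genes. All EE + SNA samples exceeded all EE Sham samples in 5 of the 10 genes, C1qa, C1qb, C1qc, Mrc1 and Trem2, and in 13.4% of all genes. None of the 10 was called when any sample other than EE Sham replicate 2 was left out, and without that sample C3 and C4b were called. Over all genes, in either direction, 1082 were called without EE Sham replicate 2. Without any other sample 361 to 694 were called, against 785 with all samples.

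EE + SNA against SH Sham, the comparison of the study for enriched conditioning, shares its controls with SH SNA against SH Sham. Here 3 of the 10 genes rose, where 6.87% of all genes were called higher. The log2 fold changes were 0.39 for C1qc (standard error 0.11, adjusted P = 0.0291), 0.30 for C4b (standard error 0.086, adjusted P = 0.0356) and 0.57 for Mrc1 (standard error 0.17, adjusted P = 0.0473). At the unadjusted threshold 7 were higher against 14.7% of all genes, the others being C1qa (0.29), C1qb (0.21), C3 (0.74) and Cd163 (0.55). All EE + SNA samples lay above all SH Sham samples for 5 of the 10 genes, C1qa, C1qb, C1qc, C4b and Mrc1, and for 16.1% of all genes. None of the 10 genes was called without SH Sham replicate 1 or with the replicate number as a block, and 1 was called without EE + SNA replicate 1 (Mrc1), without EE + SNA replicate 3 (C4b) or with the neutrophil covariate (C4b). Calls over all genes, in either direction, were 1219, 1474, 1168, 1496 and 1018 in these fits, in this order, against 2031 in the main fit.

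No difference between housings was detected in any of the 10 genes, with or without injury. Among injured ganglia, EE + SNA against SH SNA, 0 of 10 genes were called at either threshold by edgeR's quasi-likelihood test, where 0% of all genes passed after adjustment and 4.1% at the unadjusted P-value. DESeq2, the likelihood ratio test and limma on FPKM called none of the 10 either. The log2 differences of EE + SNA minus SH SNA were −0.069 for C1qa (95% interval −0.38 to 0.25), −0.084 for C1qb (−0.35 to 0.18) and 0.0056 for C1qc (−0.23 to 0.24). They were −0.050 for C3 (−0.60 to 0.51), −0.047 for C4b (−0.26 to 0.17), −0.090 for Mrc1 (−0.55 to 0.37) and −0.20 for Cd163 (−0.61 to 0.22). For the low genes the intervals were wide, with 0.24 for Cd68 (−0.42 to 0.91), 0.032 for Aif1 (−0.58 to 0.64) and −0.28 for Trem2 (−0.94 to 0.38). The narrowest intervals were those of C4b and C1qc.

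Between EE Sham and SH Sham, 0 of 10 genes were called by edgeR after adjustment and 0 at the unadjusted P-value, where 0.00616% and 2.97% of all genes were called, and by DESeq2 none of the 10 was called. The log2 differences lay between −0.22 (Cd68) and 0.25 (Cd163), and the outermost bounds of their 95% intervals were −0.94 and 0.72. Over both surgeries, EE against SH gave 0 called genes among the 10 at either threshold, where 0% and 4.69% of all genes were called. Its differences lay between −0.22 (Trem2) and 0.041 (C3), and C1qc had the narrowest interval, −0.19 to 0.12. The interaction, the injury difference in EE minus that in SH, was called in 0 of 10 genes at either threshold, where 0% and 2.61% of all genes passed. Its values lay between −0.45 (Cd163) and 0.46 (Cd68), with outermost bounds of −1.14 and 1.44. In simulated counts with a log2 change of 0.5, the interaction test called 3 of 68 changed genes, the pooled injury test 33 and the test of 3 against 3 samples 10. The changed genes were drawn from all genes tested, and every gene was given the same dispersion between samples. These counts therefore do not measure what the tests could detect in the C1q genes. For C1qc the 95% interval of the interaction was −0.23 to 0.41.

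**Figure D3:**
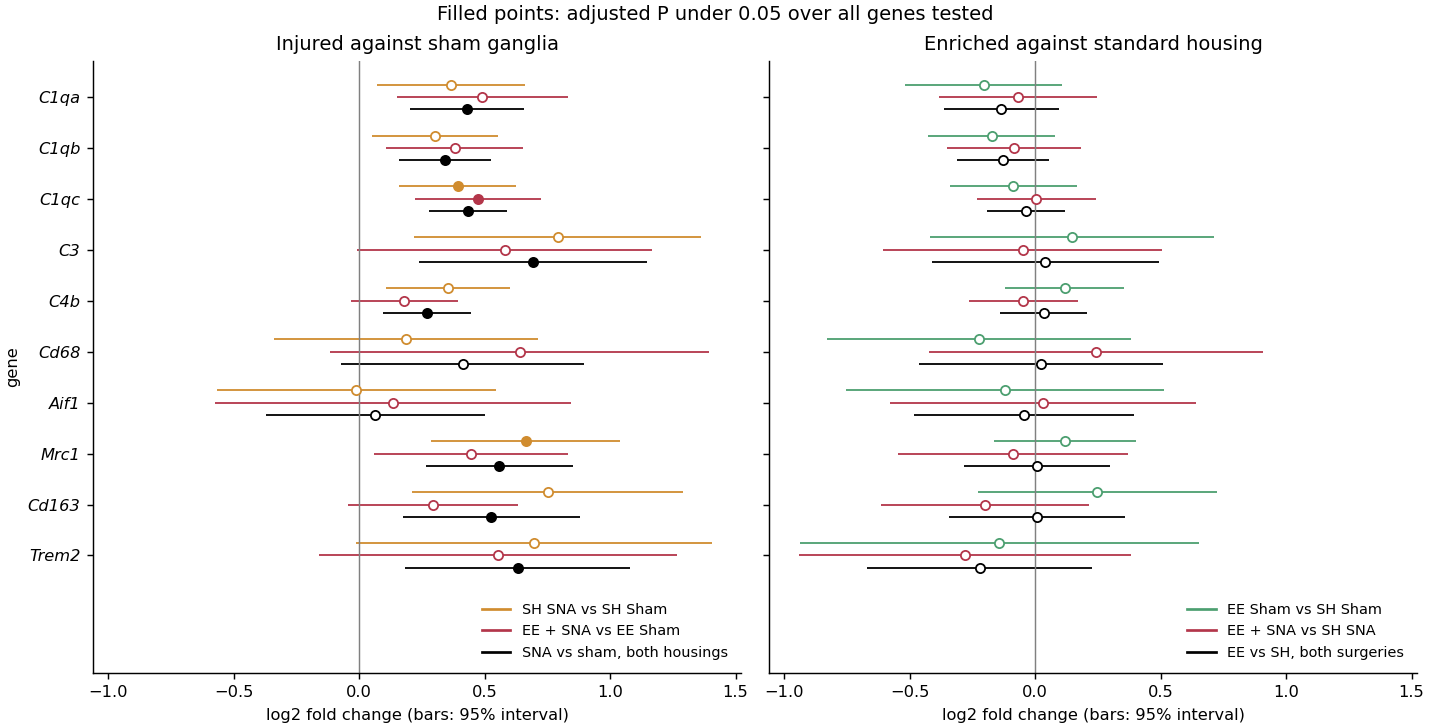
Log2 fold changes of the 10 genes with 95% intervals, for injury (left) and for housing (right), with filled points for adjusted P-values under 0.05. In the injury panel 8 genes are filled for both housings together, and in the housing panel no point is filled and every interval includes 0.

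The other genes of complement were then ordered by their role. Most of the receptors for complement fragments rose. Of 8 receptor genes tested of 9 listed, 5 rose over both housings, where 11.4% of all genes did, and none fell (median log2 fold change 0.59). In SH 3 of the 8 were called higher, in EE + SNA against SH Sham 4, and in EE + SNA against EE Sham 0 by edgeR after adjustment and 4 at the unadjusted P-value. The shares of all genes called higher were, in this order, 6.06%, 6.87%, 2.51% and 10.3%. C3ar1, the receptor for C3a, lay at 0.880 to 2.03 CPM in the sham samples and 1.78 to 2.78 CPM in the SNA samples, with a log2 fold change of 0.80 (standard error 0.19, adjusted P = 0.00583). C5ar1, the receptor for C5a, lay at 1.54 to 2.26 CPM in the sham samples and 2.70 to 4.03 CPM in the SNA samples, so that its groups did not overlap (log2 fold change 0.69, standard error 0.14, adjusted P = 0.00183). Itgam and Itgb2, the chains of complement receptor 3, had log2 fold changes of 0.62 (adjusted P = 0.0145) and 0.57 (adjusted P = 0.0440), and Cd93, a surface receptor of endothelium and myeloid cells had 0.26 (adjusted P = 0.0111). In GENCODE 3450 exonic bases of Itgam are shared with another gene model, so that its counts are less certain. C3ar1, C5ar1, Itgam and Itgb2 are also made by neutrophils, whose summed level in these samples is given above.

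Of the other activating components, 9 of 16 listed were tested over both housings, 0 rose and 1 fell (median log2 fold change 0.18), against 11% of all genes called lower. At the unadjusted P-value 3 were higher, against 18.1% of all genes. C1s, a protease of the C1 complex, had a log2 fold change of 0.34 (95% interval 0.082 to 0.60, adjusted P = 0.0552), C2 had 0.58 (0.13 to 1.04, adjusted P = 0.0628) and properdin (Cfp) 0.49 (0.058 to 0.93, adjusted P = 0.0971). In EE + SNA against SH Sham, C1s rose by 0.47 (adjusted P = 0.0446) and Cfd, the protease factor D that is abundant in fat cells, by 1.22 (adjusted P = 0.0456), 2 of 9 against 6.87% of all genes, and 1 of 9 fell against 5.63%. In SH and in EE edgeR called 0 of the 9 higher after adjustment. At the unadjusted P-value it called 0 and 3, against 13.4% and 10.3% of all genes. Over both housings C1ra, the partner of C1s, had 0.18 (−0.12 to 0.47). The gene that fell was Masp2, a protease of the lectin pathway, at 8.73 to 10.8 CPM in the sham samples and 7.18 to 8.72 CPM in the SNA samples (log2 fold change −0.33, standard error 0.077, adjusted P = 0.00504). Masp2 shares 1817 exonic bases with Tardbp on the other strand, and as the strand setting of the counting is not given in the sources used here, reads of the 2 genes may be mixed. The terminal components were scarce. C8a, C8b and C9 had at most 2 counts in any sample, C6 at most 6 and C7 at most 13. Cfb of the alternative pathway had at most 3. In GENCODE 2246 exonic bases of Cfb and 1656 of C2 are shared with another gene model on the same strand. Reads there may be missing from the counts of both genes, so that the level of Cfb and the difference in C2 are less certain.

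Among 12 regulators of complement, all tested, 3 rose and 2 fell over both housings (median log2 fold change 0.0023), where 11.4% of all genes rose and 11% fell. Serping1, the inhibitor of the C1 proteases, lay at 134 to 159 CPM against 158 to 181 CPM (log2 fold change 0.27, standard error 0.048, adjusted P = 0.000537). Cd59a, a membrane inhibitor of the terminal complex, rose by 0.18 (adjusted P = 0.0114). The genes that fell encode inhibitors of the cell membrane. Cd55, the decay-accelerating factor, lay at 379.5 to 454 CPM in the sham samples and 272 to 349 CPM in the SNA samples, and fell by 0.42 on the log2 scale (standard error 0.062, adjusted P = 8.55e-05). Susd4, an inhibitor of C3 activation on cells, lay at 67.9 to 82.0 CPM against 55.4 to 64.2 CPM, and fell by 0.37 (standard error 0.050, adjusted P = 2.94e-05). For Cd55 and Susd4 all 6 SNA samples were below all 6 sham samples. Over the same samples 6 of 10 sensory neuron genes fell, and the part of neuronal transcripts in the levels of Cd55 and Susd4 was not tested. Cd55 and Cd59a have near copies in the mouse genome, and reads shared with a copy could not be told apart.

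**Figure D4:**
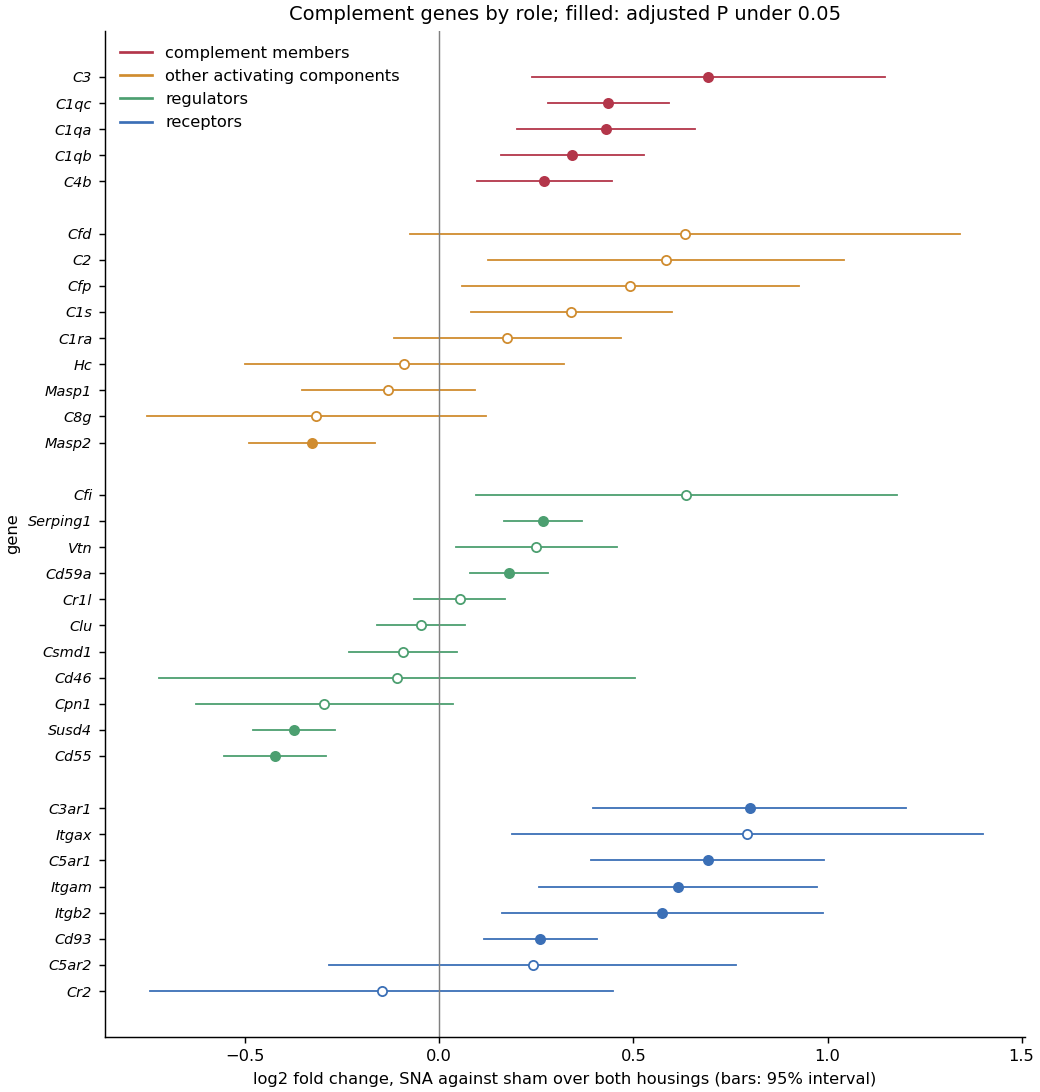
Log2 fold changes of complement genes over both housings, SNA against sham, with 95% intervals, grouped as the 5 genes followed here, other activating components, 11 of the 12 regulators and receptors. Filled points have an adjusted P-value under 0.05. The 5 genes and 5 receptors are filled to the right of 0, and Masp2, Susd4 and Cd55 to the left.

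Of the 14 genes of macrophages in general, all tested, 8 rose over both housings, where 11.4% of all genes did, none fell, and the median log2 fold change was 0.49. In SH 3 of the 14 were called higher, in EE + SNA against SH Sham 4, and in EE + SNA against EE Sham 0 by edgeR after adjustment and 6 at the unadjusted P-value. The shares of all genes called higher were, in this order, 6.06%, 6.87%, 2.51% and 10.3%. Tyrobp, the signalling partner of TREM2, lay at 4.33 to 5.62 CPM in the sham samples and 5.75 to 13.1 CPM in the SNA samples, with a log2 fold change of 0.68 (standard error 0.16, adjusted P = 0.00520). The Fc receptor genes Fcer1g and Fcgr3 each had 0.58 (adjusted P = 0.0241 and 0.0130), and Lyz2, lysozyme of myeloid cells, had 0.57 (adjusted P = 0.00878). Csf1r rose by 0.25 (standard error 0.081, adjusted P = 0.0312), from 16.0 to 21.1 CPM in the sham samples to 18.7 to 24.0 CPM in the SNA samples. Csf1r shares 873 exonic bases with Hmgxb3 on the other strand. Reads of these genes may be mixed, as for Masp2. Tyrobp, Fcer1g, Fcgr3 and Lyz2 are shared with monocytes and neutrophils.

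Of 10 further markers of resident and perivascular macrophages that were tested, 2 rose, 1 fell and 7 did not pass over both housings, with a median of 0.22. These shares lie near those of all genes, of which 11.4% were called higher and 11% lower. F13a1, the A chain of coagulation factor XIII, lay at 11.4 to 17.0 CPM in the sham samples and 17.8 to 35.8 CPM in the SNA samples, with no overlap (log2 fold change 0.79, standard error 0.14, adjusted P = 0.000429). Stab1, a scavenger receptor, had 0.32 (adjusted P = 0.0197). Gas6, a ligand of the AXL receptor that glia and other cells make as well, fell by 0.15 (adjusted P = 0.0242). Lyve1 had 0.12 (95% interval −0.11 to 0.35) and Mgl2 −0.033 (−0.40 to 0.33).

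To set the 10 genes against the general macrophage level of the same library, their CPM was divided by that of Csf1r. For C1qc this ratio was 0.477 to 0.625 in the sham samples and 0.582 to 0.733 in the SNA samples, with 4 of 6 SNA samples above every sham sample. For C1qa it was 0.497 to 0.746 against 0.582 to 0.816, and for C1qb 0.757 to 0.971 against 0.880 to 0.974. For Mrc1 it was 0.565 to 0.915 against 0.756 to 1.07. The ratio to Csf1r overlapped between sham and SNA in all 10 genes, with 1 to 4 SNA samples above the sham range. This ratio is a description, and no test was made of it. It is also less certain where reads of Hmgxb3 are mixed with those of Csf1r.

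The summed level of the 5 macrophage genes lay at 20.8 to 26.8 CPM in the sham samples and 28.3 to 43.3 CPM in the SNA samples, and that of the 5 complement genes at 90.6 to 125 CPM and 119 to 161 CPM. For comparison, the monocyte sum lay at 67.1 to 108 CPM against 79.3 to 199 CPM, the sum of the general macrophage genes at 127 to 172 CPM against 151 to 296 CPM, and that of the myelinating Schwann cell genes at 6903 to 9653 CPM against 8310 to 12949 CPM. The neutrophil, monocyte, general macrophage and red blood cell sums of EE + SNA replicate 3 were the highest of all samples. So were its Mrc1 (25.4 CPM) and Cd68 (5.56 CPM). Its sum of the 5 macrophage genes was 43.1 CPM, close to the highest, 43.3 CPM in SH SNA replicate 1. Its C1qa and C1qb (17.2 and 21.2 CPM) were below those of SH SNA replicate 1 (19.0 and 22.6 CPM). Its C4b (63.7 CPM) and Trem2 (0.886 CPM) were the lowest of EE + SNA.

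**Figure D5:**
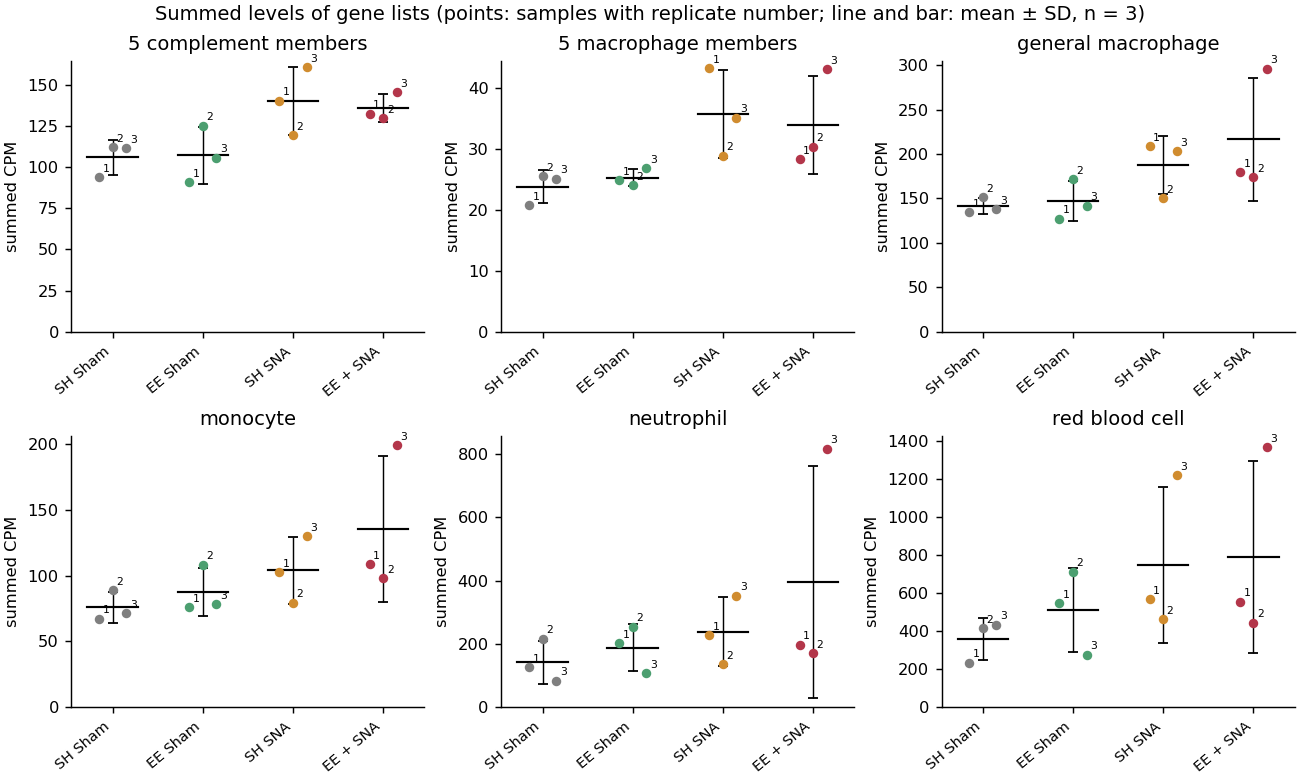
Summed CPM of the 5 complement genes, the 5 macrophage genes and the general macrophage, monocyte, neutrophil and red blood cell lists by group. Points are samples with their replicate number, lines are means and bars the SD (n = 3). EE + SNA replicate 3 stands at 818 CPM for neutrophil genes and at 43.1 CPM for the 5 macrophage genes, which lie at 28.3 to 43.3 CPM in the SNA samples.

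Across the 12 samples the C1q chains followed each other. On log2 CPM, Pearson's r was 0.89 for C1qa and C1qb, 0.85 for C1qa and C1qc and 0.82 for C1qb and C1qc, and after removal of the group means it was 0.72, 0.63 and 0.55. C3 and C4b followed each other as closely (0.86, and 0.77 without the group means). C1qc and Mrc1 had 0.83 and 0.77, and Mrc1 and Cd163 had 0.74 and 0.49. Trem2 had 0.54 to 0.64 with the C1q chains, and without the group means −0.24 to −0.13. Aif1 had 0.50 with C1qa, 0.33 with C1qb and 0.11 with C1qc, and 0.59, 0.33 and −0.057 without the group means. With the summed Schwann cell genes the C1q chains had r of 0.72 to 0.83, and with the fibroblast genes 0.76 to 0.79, about as high as with the general macrophage genes (0.76 to 0.79). These values describe samples that share library depth and tissue composition, and no P-value is given.

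Of 15335 genes with at least 1 CPM on average, those nearest to the mean of the C1q chains over the 12 samples on log2 CPM were Rab31 (r = 0.95), a GTPase of vesicle transport, Stk17b (0.94), a kinase, Syf2 (0.94), a splicing factor, Slc6a8 (0.94), the creatine transporter, and Vim (0.93), the intermediate filament of non-neuronal cells. Without the group means Rab31 kept 0.94 and the other 4 had 0.79 to 0.86. Nearest to the mean of Mrc1 and Cd163 were Nadk (0.94), an NAD kinase, Slc6a4 (0.93), the serotonin transporter, Tor1aip2 (0.92), a protein of the nuclear envelope, Ppp1r18 (0.92), a phosphatase subunit, and Irak3 (0.92), an inhibitor of Toll-like receptor signalling in macrophages. The values without EE + SNA replicate 3 were 0.90 to 0.95 for all of these genes.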

How the data were processed

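RNA of sciatic DRG from 12 samples (4 groups of 3, grouped by the labels) was analysed. The authors aligned reads to mm10 with TopHat2 2.0.12, and HTSeq gave the deposited counts, whole reads for each gene name without normalization. The deposited FPKM were made by the authors from the same reads and were used for levels between genes and an alternative test. HTSeq assigned 46.7% to 47.6% of reads to no feature and left out 8.49% to 9.28% as not unique. Why so many reads fell on no feature was not tested, and the strand setting of the counting is not given.

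Library sizes were corrected by TMM factors (edgeR 4.0.16 in R 4.3.3), and low genes were removed by filterByExpr (10 counts, total of 15, 4 groups), which kept 16238 genes. A comparison of 2 groups used its own 6 samples, and pooled and interaction tests on all 12, by two-sided quasi-likelihood F tests. P-values were adjusted by Benjamini-Hochberg over all genes tested. Standard errors and 95% intervals were derived from the F statistic. Replicates are separate pools, and pairs of them differed by more than counting error (chi-square per degree of freedom 3.86 to 8.51). The test was tried on simulated counts.

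The 10 genes and all lists were chosen with earlier results of these data known. Named beside them are, per complement or macrophage list, up to 4 called genes of at least 1 CPM with the largest change, and the 5 genes nearest in pattern to C1q and to Mrc1 with Cd163 (a prior of 0.5 on log2 CPM); further genes of these lists were named after their values were seen. Other lists cover monocytes, neutrophils, lymphocytes, mast cells, red blood cells, sensory neurons, satellite glia, Schwann cells, endothelium, fibroblasts, microglia, the Trem2 program and injury genes. Some genes counted in these lists are not reported here by name.

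Alternatives were DESeq2 1.42.0, the likelihood ratio test, scaling by library size, no filter, at least 10 counts in every sample, limma 3.58.1 on log2(FPKM + 1) or log2(FPKM + 0.1), a replicate block, all 12 samples in 1 fit and each sample left out. Figures were drawn with Matplotlib 3.10.9.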

Additional observations from a re-analysis of the deposited data

How the results depend on the processing

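The number of the 10 genes called after SNA depended on the processing, and the cause was not tested. For SH SNA against SH Sham, with 2 called, it was 4 by the likelihood ratio test, 6 with no filter on low counts, 1 and 0 by limma on log2(FPKM + 1) and log2(FPKM + 0.1), 0 with the neutrophil covariate, and 0 to 6 when 1 sample was left out. Calls over all genes, in either direction, changed too. They were 1823 in the main fit and, in the same order, 1854, 2521 of 24672, 1329, 966, 1088, and 1207 to 1683. For EE + SNA against SH Sham, with 3 called, it was 1 when scaled by library size only, 5 with no filter, 1 by limma on either FPKM scale, 1 with all 12 samples in 1 fit, 1 with the neutrophil covariate, and 0 to 3 when 1 sample was left out. Over all genes 2031 were called in the main fit and, in the same order, 2042, 2883 of 24854, 1280 and 769, 1993, 1018, and 1168 to 2021. For EE + SNA against EE Sham, with 1 called, it was 0 by DESeq2, 2 by the likelihood ratio test, 5 with no filter, 0 by limma on log2(FPKM + 0.1), 0 with the neutrophil covariate, and 0 to 2 when 1 sample was left out. Of all genes 785 were called in the main fit and, in the same order, 923, 1303, 1720 of 24592, 206, 498, and 361 to 1082. Over both housings, with 8 called, it was 4 and 5 by limma on the FPKM scales, 2 with the neutrophil covariate, 4 without both libraries of the highest neutrophil sums, and 4 to 7 when 1 sample was left out. Here 3638 of all genes were called in the main fit and, in the same order, 3280, 3101, 2473, 2740, and 2962 to 3770. The neutrophil alternatives were chosen after seeing the data. In the housing comparisons and the interaction 0 of the 10 genes were called under every alternative run, where 0 to 132 of all genes were. A replicate block left 0 of the 10 genes called for EE + SNA against SH Sham, and this block gave 2, 1 and 8 for the other injury comparisons. With the block 1474 of all genes were called for EE + SNA against SH Sham, and 1924, 887 and 3920 for the others. The numbers were not taken to pair the samples, as same-numbered samples had deviations with r of −0.27 to 0.37 and no comparison had all 3 pairs over 0.1. Directions turned mostly in small differences, but also in larger ones of Cd68. Aif1 became 0.29 in SH with the neutrophil covariate, and −0.017 and −0.035 in EE + SNA against SH Sham by limma on FPKM + 1 and FPKM + 0.1. Cd68, at 0.42 in EE + SNA against SH Sham, became −0.12 with the neutrophil covariate. C1qc became −0.0026 in EE + SNA against SH SNA by library size. When 1 sample was left out, Aif1 ranged from −0.24 to 0.17 in SH, −0.10 to 0.15 in EE + SNA against SH Sham, −0.15 to 0.36 in EE and −0.078 to 0.16 over both housings, and Cd68 from −0.052 to 0.38 in SH. In EE + SNA against SH SNA the ranges were −0.18 to 0.10 for C1qa, −0.21 to 0.00015 for C1qb, −0.063 to 0.082 for C1qc, −0.31 to 0.25 for C3, −0.12 to 0.10 for C4b, −0.13 to 0.47 for Cd68, −0.16 to 0.26 for Aif1, −0.34 to 0.093 for Mrc1 and −0.40 to 0.023 for Cd163. With counts of 8 to 69 per sample, Trem2, Aif1 and Cd68 are limited by depth.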

Other observations

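Genes that microglia induce through Trem2 in lipid-rich tissue were mostly not called after SNA over both housings by edgeR's quasi-likelihood test. Of 11 tested, 3 rose, where 11.4% of all genes did, and none fell, with a median log2 fold change of 0.20. Lpl, lipoprotein lipase, lay at 10.3 to 18.5 CPM in the sham samples and 11.3 to 38.4 CPM in the SNA samples (log2 fold change 0.78, standard error 0.21, adjusted P = 0.0114). Spp1, osteopontin, had 0.48 (adjusted P = 0.00211) and Axl, a receptor of Gas6, had 0.23 (adjusted P = 0.0320). Apoe, at 1252 to 1640 CPM in all samples, had 0.011 with a 95% interval of −0.11 to 0.13. Spp1 and Apoe are also made by neurons and glia of the ganglion. Of 8 homeostatic microglia genes tested, 1 rose, near the 11.4% of all genes called higher. It was Fcrls, an Fc receptor-like gene, with 0.42 (adjusted P = 0.0179). P2ry12, the purinergic receptor, had 0.078 (95% interval −0.18 to 0.33).

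Of 8 monocyte genes tested, 1 rose over both housings, near the 11.4% of all genes called higher. It was Ly6c1, with no overlap between sham (27.97 to 41.3 CPM) and SNA samples (45.2 to 53.3 CPM) and a log2 fold change of 0.37 (adjusted P = 0.00215). Ly6c1 is also expressed by endothelium. In EE + SNA against SH Sham 3 of the 8 were called higher (6.87% of all genes), Ly6c1, Ccr2, the chemokine receptor of monocytes, and Chi3l3, a chitinase-like gene of myeloid cells. Among the other lists over both housings, 1 of 11 neutrophil, 1 of 3 lymphocyte, 1 of 5 mast cell, 2 of 7 red blood cell, 2 of 7 satellite glia, 7 of 8 Schwann cell, 1 of 7 endothelial and 2 of 7 fibroblast genes rose and none fell, and 6 of 10 sensory neuron genes fell. Of all genes 11.4% were called higher and 11% lower, and the neutrophil and endothelial shares lie near the first. All 6 injury genes rose.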
